A study of Rattus norvegicus with 6 samples.

Results

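The genes described here encode the proteins of elastic fibres, and they were chosen by name: Eln, Fbn1, Fbn2, Fbln1, Fbln2, Fbln5, Efemp1, Efemp2, Mfap4 and Mfap5, 10 of the 21026 gene symbols measured. Polyadenylated RNA had been sequenced from bone marrow mesenchymal stem cells of rats, plastic-adherent marrow cells able to become osteoblasts, adipocytes or chondrocytes. The libraries fall into 2 groups of 3, young and aged by their labels, which name no treatment, allele or agent in either group. The sources used here give no age in months, strain, sex, passage or culture medium. The labels call the libraries of each group biological replicates, but separate animals are not stated. The spread behind the p-values is therefore that of these 6 libraries. It may not be that between animals and may still be technical.

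Elastic fibres give skin, lung, vessel wall and other tissues their recoil. Their core is cross-linked elastin, laid down on a scaffold of microfibrils built from fibrillins, with fibulins joining the parts and lysyl oxidases forming the cross-links. Microfibrils also occur without elastin, as in the eye and in periosteum, and they store latent TGF-beta and BMPs, through which fibrillins are known to influence bone-forming cells.

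Total counts per library ran from 34638874 to 42479626. All 9 members with enough counts were fitted together with the rest of the 14273 genes tested, of which 86.4% differed between the groups (41.8% lower and 44.7% higher in aged cells), so a call by itself says little about one gene. Young replicate 2 stood apart from the other young libraries: its gene counts differed from theirs with a chi-square of 9.19 and 11.2 per degree of freedom, against 3.13 to 3.64 for the other pairs of libraries within a group. For the 10 genes, a call that changes without it is given both ways. The stromal identity of the cultures was checked against 10 marker genes, of which Col1a1, Thy1 and Pdgfrb stood at 10930 ± 41.6, 1621 ± 13.7 and 586 ± 7.72 CPM (read counts relative to the TMM-adjusted library total) in aged cells and higher in young ones (mean ± SD, n = 3), while Lepr and Vcam1 were under 1 CPM in both group means. The list as a whole had 3 genes higher, 5 lower and 2 not called in aged cells, with Nt5e 4.48-fold higher and Cxcl12 16.7-fold lower. Lepr, among the higher ones, had enough counts for testing only in the aged libraries and could be tested only as higher there.

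An entry for 7 of these genes was found in the RefSeq promoter table of rat assembly GRCr8, and none for Eln, Fbln1 or Mfap4. Of the 7, 3 upstream regions are shown, for a larger fall, a smaller fall and a gene not called. No region is shown for a gene that rose, because Mfap4 had no entry. Fbn1 fell 8.63-fold, Efemp2 fell 2.56-fold, and Fbln2 was not called. Each line gives the 250 bases before the annotated start in the direction of transcription, with matches to the searched motifs in capitals.
Fbn1, chr3:133203391-133203640, minus strand: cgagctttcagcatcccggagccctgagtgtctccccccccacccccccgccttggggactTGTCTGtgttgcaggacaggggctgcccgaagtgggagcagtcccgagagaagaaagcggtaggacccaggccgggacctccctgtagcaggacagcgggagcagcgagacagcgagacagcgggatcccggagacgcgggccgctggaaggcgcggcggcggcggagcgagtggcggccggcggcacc
Efemp2, chr1:212211472-212211721, plus strand: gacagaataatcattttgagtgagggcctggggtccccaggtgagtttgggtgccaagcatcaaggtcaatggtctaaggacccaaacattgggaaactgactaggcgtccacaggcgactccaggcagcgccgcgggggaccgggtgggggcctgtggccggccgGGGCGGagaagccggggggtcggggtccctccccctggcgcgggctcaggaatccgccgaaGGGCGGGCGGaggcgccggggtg
Fbln2, chr4:125261409-125261658, plus strand: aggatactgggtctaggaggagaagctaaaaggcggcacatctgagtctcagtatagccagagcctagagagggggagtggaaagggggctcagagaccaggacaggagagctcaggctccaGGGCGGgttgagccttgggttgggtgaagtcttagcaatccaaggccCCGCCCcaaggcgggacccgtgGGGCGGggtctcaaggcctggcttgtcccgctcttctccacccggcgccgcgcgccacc
The capitals in Fbn1 are 1 match to the SMAD element CAGACA, read on the opposite strand. In Efemp2 and Fbln2 they are GC boxes (GGGCGG on either strand), 3 in each, and 2 of those in Efemp2 overlap. A GC box was present in 4 of the 7 member promoters (57.1%) and in 30.5% of all 33469 promoters of that length, and CAGACA in 1 of 7 against 17.2%. The AP-1 site TGANTCA occurred in 1 of 7 (in Efemp1) against 6.34%, and neither the TATA box TATAAA (12.9% of all promoters) nor the E box CACGTG (5.59%) occurred in any of the 7. G and C made up 51.6% to 71.2% of the member promoters, and the median over all promoters was 51.2% (interquartile range 44% to 60%). All member promoters but that of Mfap5 had 61.2% or more. These are matches of letters only, and their part in the changes was not tested.

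Elastin transcripts were all but absent from the counts. Eln, which encodes tropoelastin, the soluble precursor of the elastic core, was counted 3, 1 and 1 times in young cells, and 1, 0 and 4 times in aged cells. Both groups thus summed to 5 counts. A count of 0 in a library allows up to 3 counts, which here is 0.0688 to 0.0839 CPM, and covers counting error only. Eln was too low to be tested, no fold is given for it, and a difference between young and aged cells was not detectable at this depth. In these cultures the microfibril and fibulin genes were thus counted with almost no elastin transcript beside them. Protein and fibres were not measured. Annotation and strand setting are not given, so a low level and reads not assigned to Eln cannot be told apart.

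**Figure D1:**
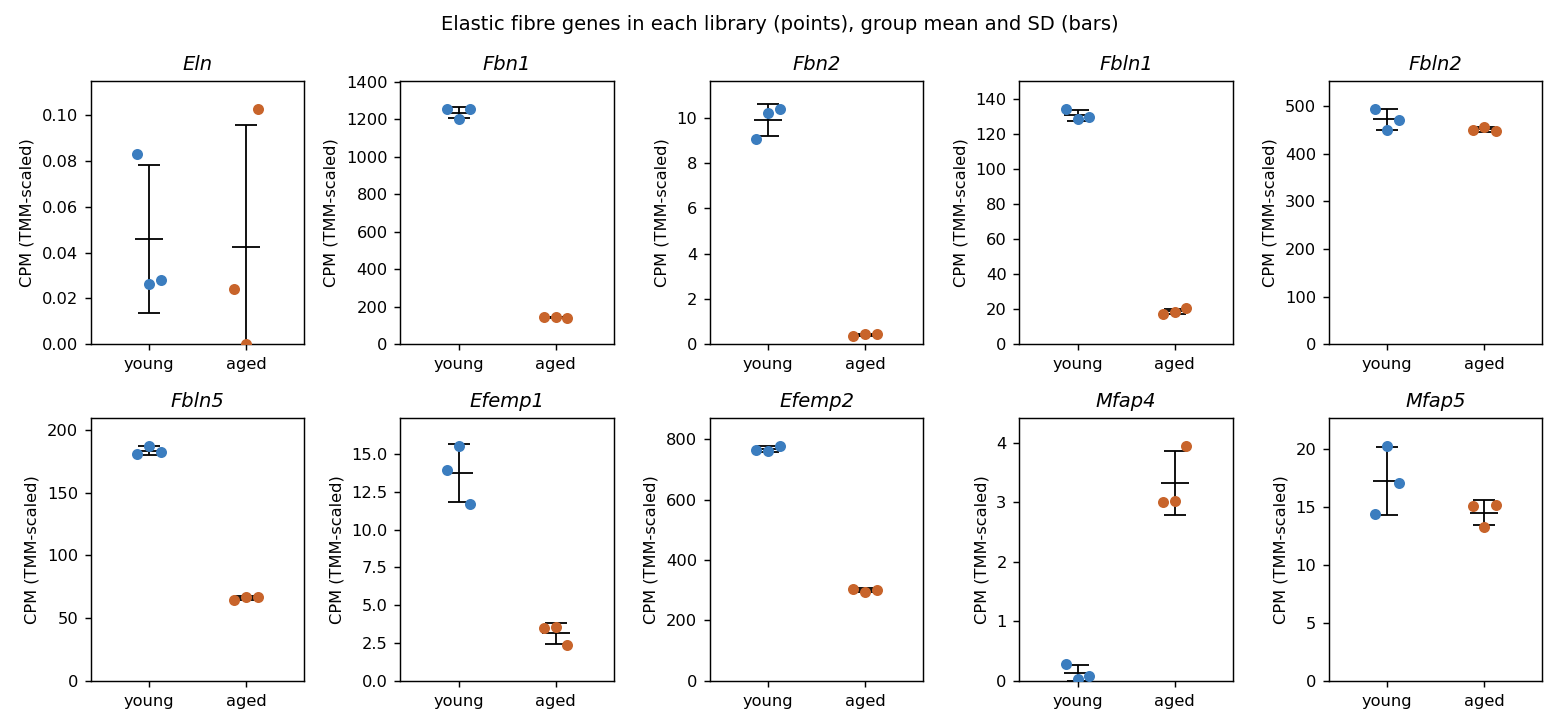
TMM-scaled CPM of each of the 10 genes in the 3 young and 3 aged libraries (points), with group mean and SD (bars), on linear axes that differ between genes. Fbn1, Fbn2, Fbln1, Fbln5, Efemp1 and Efemp2 are lower in every aged library, Mfap4 is higher in every aged library, and the groups overlap for Eln, Fbln2 and Mfap5.

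Both fibrillins, the large glycoproteins that polymerise into microfibrils, fell. Fbn1, the fibrillin of adult tissue and the gene mutated in Marfan syndrome, had 1254, 1201 and 1253 CPM in the young libraries and 145.6, 145.2 and 139 CPM in the aged ones. The groups were far apart and each was tight, with a coefficient of variation of 2.45% in young and 2.57% in aged cells. Its log2 change, aged over young, was -3.11 ± 0.0341 (SE), an 8.63-fold fall (edgeR's quasi-likelihood test, adjusted p = 8.1e-21), and 2.92% of all tested genes had a change as low or lower. Fbn2, the fibrillin made mainly during development, was at 9.08, 10.2 and 10.4 CPM in young libraries and at 0.363, 0.458 and 0.436 CPM in aged ones. That is 328, 388 and 371 counts against 15, 20 and 17, and again no library of one group came near the other. Fbn2 fell 23.4-fold (log2 change -4.55 ± 0.186, edgeR adjusted p = 1.5e-13), with 1.37% of tested genes as low or lower. Its aged level rests on few counts, yet the log2 change stayed between -4.63 and -4.22 over the 12 other ways of processing that were run.

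The fibulins did not share one outcome. Fbln1, a long fibulin that binds fibronectin and basement membrane proteins as well as elastin, had 134, 128.4 and 129.3 CPM in young libraries and 17.4, 18.4 and 20.4 CPM in aged ones. It fell 6.98-fold (log2 change -2.80 ± 0.0586, edgeR adjusted p = 1.7e-17), with no overlap between groups. Fbln2, the other long fibulin, was at 493.2, 450.4 and 471.6 CPM in young cells and at 449.1, 456 and 447 CPM in aged cells. These ranges overlap, the log2 change was -0.07 ± 0.0351, and the gene was not called (edgeR adjusted p = 0.089). Its direction depended on the scaling and its call on a single library: the log2 change was 0.27 with libraries scaled by size alone (edgeR adjusted p = 1.4e-06), and -0.10 without young replicate 2 (edgeR adjusted p = 3.1e-04).

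The 3 short fibulins among these genes, Fbln5, Efemp1 and Efemp2, were lower in aged cells. Fbln5 encodes fibulin-5, which tethers elastin to cells and to microfibrils, and Efemp2 encodes fibulin-4, which brings lysyl oxidase to tropoelastin. Fbln5 had 180.5, 187.2 and 182.6 CPM in young libraries and 64.6, 67.2 and 66.5 CPM in aged ones, a 2.78-fold fall (log2 change -1.47 ± 0.0407, edgeR adjusted p = 6.4e-16). Efemp2 went from 765.1, 759.7 and 777.8 CPM to 305.7, 293.1 and 301.5 CPM, a 2.56-fold fall (log2 change -1.35 ± 0.0311, edgeR adjusted p = 5.5e-17). Young and aged libraries were fully separate for both. Efemp1, which encodes fibulin-3, a protein of fascia and retina, was at 14, 15.5 and 11.7 CPM against 3.49, 3.58 and 2.36 CPM, with no overlap. Its fall was 4.36-fold (log2 change -2.12 ± 0.152, edgeR adjusted p = 4.5e-10), and its coefficient of variation was 13.9% in young and 21.6% in aged cells, above the 1.21% and 2.13% of Efemp2. Efemp1 had 92 to 589 counts per library and Efemp2 11767 to 28808, so counting error alone is larger for Efemp1.

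The microfibril-associated proteins differed from the rest. Mfap4, an integrin ligand that binds elastin and fibrillin, was the one member that rose. The young counts were 10, 1 and 3 and the aged counts 124, 132 and 154, or 0.277, 0.0264 and 0.0839 CPM against 3, 3.02 and 3.95 CPM. Every aged library was above every young one, and the fitted log2 change was 4.67 ± 0.419, a 25.4-fold rise (edgeR adjusted p = 1.1e-08). With 14 young counts in all, the size is uncertain: the log2 change was 5.83 without young replicate 1 and 4.17 without young replicate 2. Mfap4 passed the filter on low counts only through its aged libraries, so it could enter the test only as a gene that differs. Mfap5, which encodes the small microfibril glycoprotein MAGP-2, was at 14.4, 20.3 and 17 CPM in young cells and at 15.1, 13.2 and 15.2 CPM in aged cells. The groups overlap. Its log2 change of -0.25 ± 0.109 was just past the threshold (edgeR adjusted p = 0.040), but not without young replicate 2 (-0.12, edgeR adjusted p = 0.23) and not in 4 of the 5 other fits that leave out a library.

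**Figure D2:**
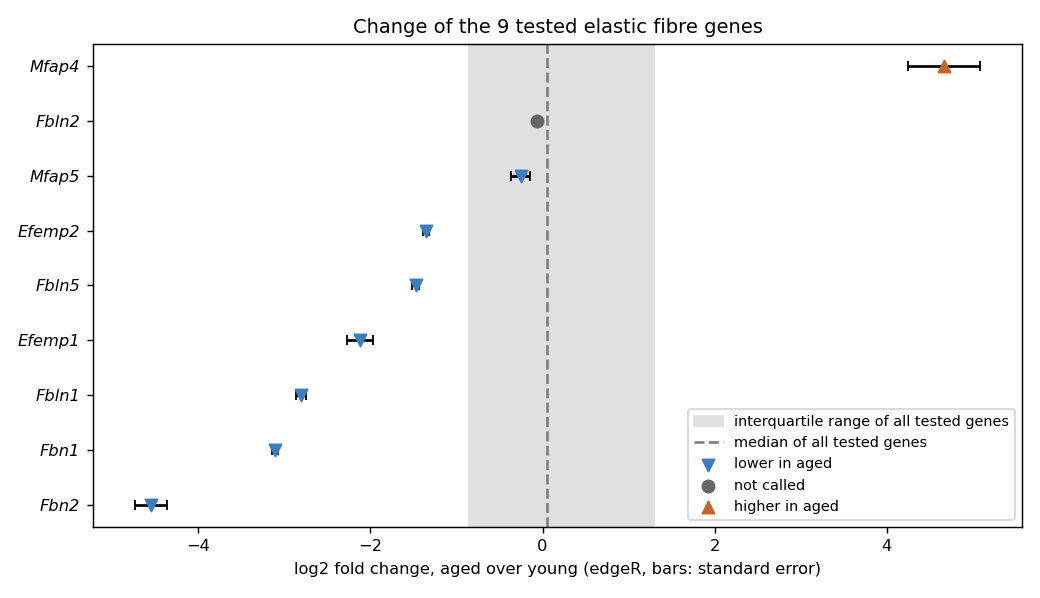
Log2 fold change, aged over young, of the 9 tested genes (edgeR; bars are standard errors), with the interquartile range (shaded, -0.85 to 1.30) and the median (dashed, 0.05) of all 14273 tested genes. Changes run from -4.55 for Fbn2 to 4.67 for Mfap4, and Fbln2 and Mfap5 lie inside the shaded range.

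Of the 9 tested members 7 were lower, 1 was higher and 1 was not called, beside 41.8% of all tested genes lower and 44.7% higher. Without overlap between the groups, 6 members were lower and Mfap4 was higher, beside 42.4% of tested genes lower and 87.5% separate in either direction. The count of lower genes includes Mfap5, whose call did not hold as described above. The median log2 change of the 9 was -1.47, and that of all tested genes 0.05. Scaling by library size alone moved the median of all tested genes to 0.39 and that of the members to -1.14, left Fbn1, Fbn2, Fbln1, Fbln5, Efemp1 and Efemp2 lower, and made Fbln2 the second member that was higher. Among all called genes 51.7% were higher by TMM and 62.3% with library size alone. In bulk RNA, fewer cells that express a gene and less RNA per cell cannot be told apart.

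Counts of the 10 genes together made up 0.248% to 0.254% of a young library and 0.112% to 0.113% of an aged one. The division of those counts among the genes changed as well, on a scale of raw counts that is not corrected for transcript length. Fbn1 took 43.7% ± 0.312 of them in young cells and 14.3% ± 0.319 in aged cells (SD, n = 3 each). Fbln2 took 16.7% ± 0.501 and 45.1% ± 0.466. Efemp2 took 27.1% ± 0.363 and 30% ± 0.609, and Fbln5 6.48% ± 0.237 and 6.61% ± 0.153. The share of Fbln2 was thus larger in every aged library, although its level was not called as different.

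**Figure D3:**
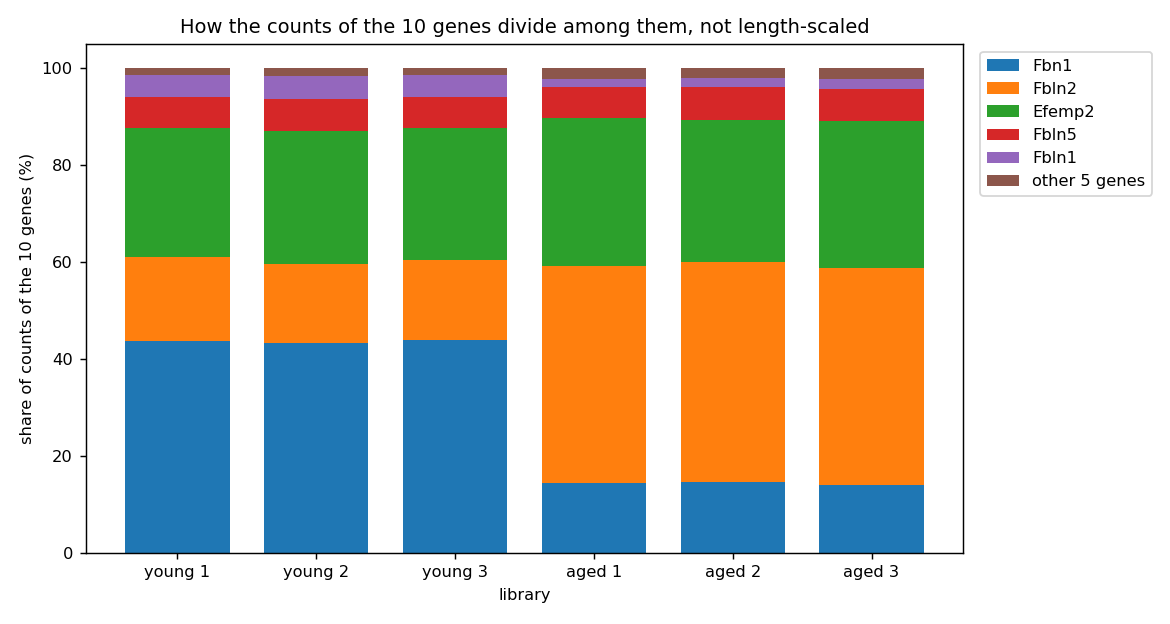
Share of the summed counts of the 10 genes that each gene took in every library (stacked bars, percent; counts are not scaled by length). Fbn1 (blue) shrinks from 43.7% to 14.3% on average and Fbln2 (orange) grows from 16.7% to 45.1%, with little difference among the 3 libraries of a group.

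Ratios of 2 genes within a library need no scaling between libraries, and 6 pairs of related members were compared in this way. With 3 libraries against 3 the exact two-sided permutation test cannot give a p below 0.10, and all 6 pairs reached that value (0.10 also after adjustment over the 6). Of all tested genes, 87.5% separated the groups by themselves, and ratios of unrelated pairs were not computed. Separation of a ratio therefore says little about these pairs. A ratio of Eln to Fbn1 was not computed because Eln had a count of 0. The ratio of Fbn1 to Fbn2 counts was 138, 117.4 and 120.7 in young libraries and 400.9, 316.6 and 319.1 in aged ones, 2.75-fold larger and without overlap. For the long fibulins, Fbln1 over Fbln2, it was 0.272, 0.285 and 0.274 in young and 0.0386, 0.0405 and 0.0456 in aged libraries, 6.68-fold smaller. By contrast, Fbln5 over Efemp2 was 0.236, 0.246 and 0.235 in young libraries and 0.211, 0.229 and 0.220 in aged ones. Those libraries are also separate, but the shift was 1.09-fold (log2 difference -0.12, with SDs of 0.0386 and 0.0586), the smallest of the 6. Both genes have a known part in elastin assembly, which need not be theirs alone among the fibulins. Their falls of 2.78-fold and 2.56-fold were close in size. Falls of that size were not particular to this pair: Bgn fell 2.53-fold and Ltbp2 2.75-fold.

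The other pairs differed by more. Efemp1 over Efemp2 was 1.73-fold smaller in aged cells, at 0.0114, 0.0122 and 0.00782 after 0.0182, 0.0204 and 0.0151. Fbln1 over Fbln5 was 2.52-fold smaller, at 0.742, 0.686 and 0.708 in young and 0.269, 0.275 and 0.306 in aged libraries. The ratio of Mfap4 to Mfap5 was 0.0192, 0.0013 and 0.00493 in young and 0.199, 0.228 and 0.260 in aged libraries. Its mean log2 difference of 5.52 carries an SD of 1.94 in the young libraries because of the few Mfap4 counts there, and was 6.49 without young replicate 1 and 4.55 without young replicate 2.

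**Figure D4:**
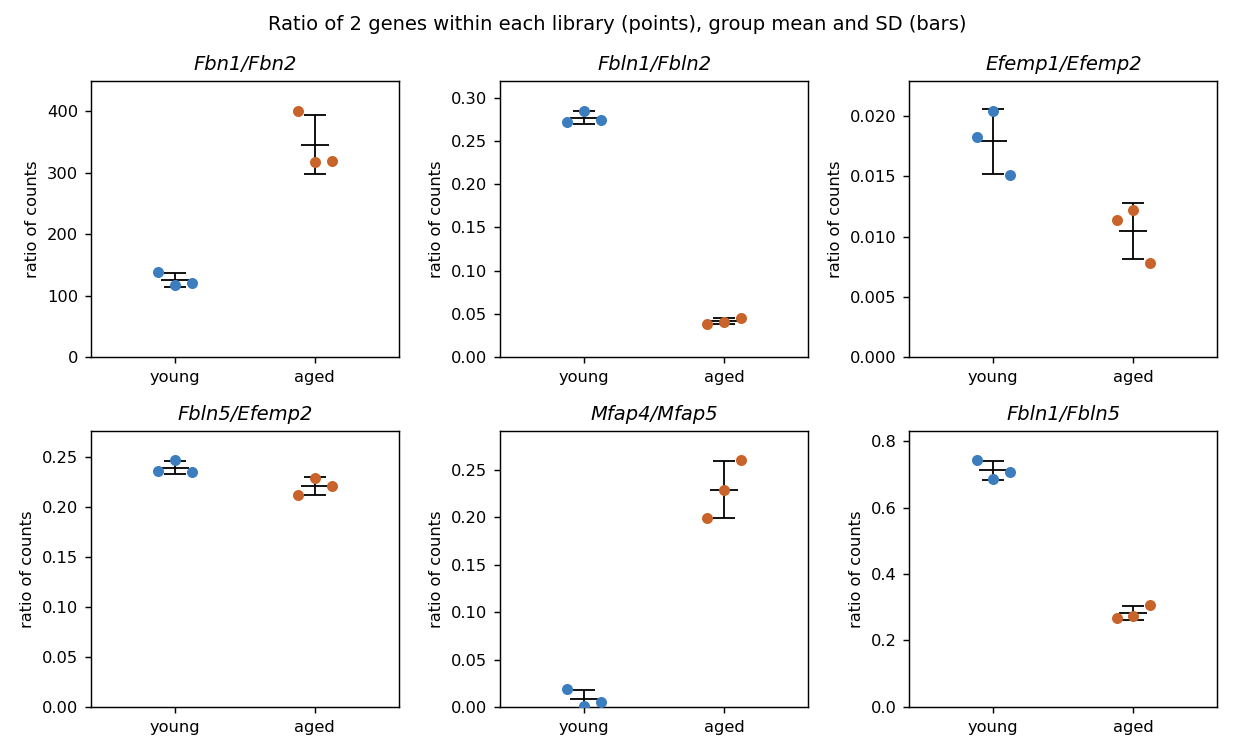
Ratio of the counts of 2 genes within each library (points), with group mean and SD (bars), for the 6 pairs compared. No pair overlaps between young and aged libraries, in data where 87.5% of all tested genes separate the groups by themselves. The shift runs from 1.09-fold (Fbln5 over Efemp2) to 45.8-fold (Mfap4 over Mfap5).

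The other genes of elastic fibre biology were taken from lists and read from the same fit, in which the median log2 change of all genes was 0.05. In that fit 41.8% of all tested genes were lower and 44.7% higher, so calls within a list say little by themselves. Scaling by library size alone turned the medians of the lysyl oxidases from -0.32 to 0.02 and of the receptors from -0.27 to 0.07, and left the other lists' medians negative. Among other proteins of microfibrils and of the elastin interface, 7 of 10 tested genes fell, 2 rose (Mfap3 and Fbln7) and 1 was not called (Mmrn2); scaled by library size alone, 6 were lower and 3 higher. The call of Fbln7, a gene under 1 CPM, was lost in 6 of 12 alternatives, the one without young replicate 2 among them. Emilin1, a glycoprotein at the border of elastin and microfibril, fell 6.78-fold (edgeR adjusted p = 1.3e-19), with 816 ± 29.1 CPM in young and 120.5 ± 4.18 CPM in aged cells. Hspg2, which encodes perlecan, went from 1582 ± 59.6 to 440 ± 6.06 CPM, and Bgn, which encodes the proteoglycan biglycan, from 7587 ± 119 to 3002 ± 20.7 CPM. Mfap2, the gene of the microfibril glycoprotein MAGP-1, had counts of 0 throughout the young libraries and of 5, 6 and 2 in aged ones, too few to test.

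Cross-linking enzymes were split. All 5 lysyl oxidase genes were called, beside 86.4% of all tested genes. Of the 5, 3 were lower and 2 higher (Lox and, by 1.06-fold, Loxl2). The change of 1 of the lower genes (Loxl4) turned its sign when libraries were scaled by size alone. Loxl2 lost its call in 5 of 12 alternatives. Lox, the main cross-linking enzyme of collagen and elastin, rose 2.61-fold (edgeR adjusted p = 1.4e-13), with 1159 ± 143.5 CPM in young and 3026 ± 33.3 CPM in aged cells. Loxl1, the relative that acts on elastin and binds fibulin-5, was at 966 ± 41.1 and 184 ± 2.69 CPM, a 5.25-fold fall (edgeR adjusted p = 3.2e-19), and Loxl3 fell 2.68-fold. Of the genes for chaperones of secretion and for cutis laxa, a disease of slack skin, 7 of 11 were lower and 4 higher (4 lower and 5 higher by library size alone). Rin2, a regulator of endosome traffic, fell 2.28-fold and the peptidyl-prolyl isomerase gene Fkbp9 fell 1.53-fold, whereas Atp6v1a, a subunit of the vacuolar proton pump, rose 2.35-fold.

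Latent TGF-beta binding proteins are relatives of fibrillin that anchor the latent growth factor to microfibrils. Of the 7 genes for these proteins and for the TGF-beta ligands, 4 fell and 3 rose, beside 41.8% of all tested genes lower and 44.7% higher. Ltbp2 fell 2.75-fold from 3963 ± 156 to 1439 ± 22.3 CPM, and Tgfb1 fell 3.23-fold from 210 ± 4.42 to 65 ± 1.03 CPM. Tgfb2 was at 20.4 ± 1.27 CPM in young and 196 ± 2.69 CPM in aged cells, a 9.59-fold rise (edgeR adjusted p = 5.2e-19). Ltbp4, which supports elastin assembly with fibulin-5, is named here after its value was seen: it was at 0.894 ± 0.414 CPM in young and 14.6 ± 0.836 CPM in aged cells, 16.2-fold higher. Among the ADAMTS and ADAMTS-like genes, whose products bind or trim fibrillin, 5 of 8 fell and 3 rose. Adamts6 rose 7.55-fold, and Adamts10 and Adamtsl4 fell 2.47-fold and 2.21-fold.

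Genes for the breakdown of elastin were mostly lower, and so were those for its inhibitors, beside 41.8% of all tested genes lower and 44.7% higher. Of 7 tested proteases that can cleave elastin 6 fell and 1 rose (Ctss, under 1 CPM in both groups and not called in 8 of 12 alternatives). Mmp9, a gelatinase, dropped 20.8-fold from 116 ± 5.56 to 5.54 ± 0.605 CPM, the gelatinase gene Mmp2 fell 2.84-fold from 6451 ± 215 CPM, and the cathepsin gene Ctsb 1.96-fold. Of the 5 tested inhibitors 4 fell and 1 rose. Slpi, an inhibitor of neutrophil elastase, fell 8.15-fold, and Timp2 fell 2.44-fold. Timp3, the tissue inhibitor of metalloproteases that binds to matrix, was at 1.66 ± 0.372 CPM in young and 68.6 ± 2.15 CPM in aged cells, a 41.1-fold rise (edgeR adjusted p = 5.4e-18). Receptors for elastin, fibulins and fibrillins showed 6 of 12 lower, 4 higher and 2 not called, Itga5 and Itga9 (6 lower and 5 higher by library size alone). The integrin gene Itgb5 fell 3.19-fold, Itga8 rose 2.92-fold, and Ctsa, part of the elastin receptor complex, fell 1.80-fold. Itgb6 was not counted in young cells (0 in all 3 libraries) and reached 0.355 ± 0.0362 CPM in aged ones, at least 4.33-fold higher against a floor of 3 counts per library. Like Mfap4, the genes Itgb6, Fbln7 and Ctss passed the filter only through the aged libraries and could be tested only as genes that are higher there; Thsd4 (an ADAMTS-like gene) and Itgb8 passed only through the young ones.

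**Figure D5:**
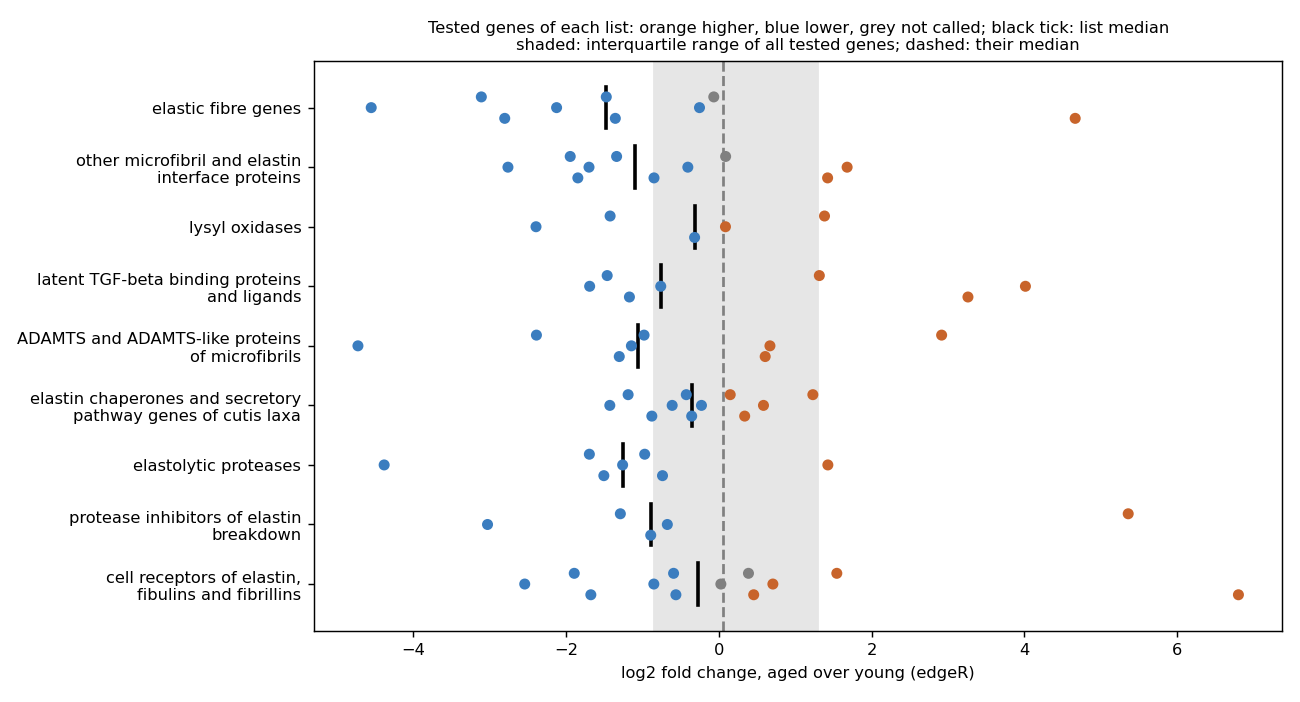
Log2 fold change, aged over young, of every tested gene in the elastic fibre group and in 8 lists of partner genes (orange higher, blue lower, grey not called; black tick, list median; shaded, interquartile range of all tested genes). The elastic fibre median is -1.47 and the list medians run from -1.26 (elastolytic proteases) to -0.27 (receptors); the rightmost point, Itgb6, had no young counts and its fitted position is no measure of size.

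Markers of other cell types that marrow cultures can hold were read in the same libraries, where 86.4% of all tested genes were called (41.8% lower and 44.7% higher). Smooth muscle cells, a main source of elastin in vessels, were represented by 8 genes, all detected. Of these, 3 were higher, 4 lower and 1 not called (5 higher and 3 lower by library size alone). Their summed level was 2315 to 2452 CPM in young and 2374 to 2441 CPM in aged libraries, but single genes shifted in opposite directions. Most of the sum was Tagln, at 1484 CPM in young and 1360 CPM in aged cells, and Acta2, at 588 and 835 CPM. Smtn fell 3.98-fold and Myh11 2.14-fold, and Myocd rose 10.2-fold to 74.9 CPM. Endothelial markers were near 0 apart from Egfl7: Pecam1 had at most 3 counts, Cdh5 at most 1 and Emcn 0 counts in every library. Egfl7 fell from 41.8 ± 1.38 to 23.6 ± 2.4 CPM, and Tek was higher in aged cells at 0.398 ± 0.161 CPM. Tek had 3 counts in young and 50 in aged cells. It passed the filter only through the aged libraries and could be tested only as higher there. For macrophages and blood cells 4 of 7 measured genes were tested, with 3 lower (Cd68, Cd14 and Lyz2) and 1 higher (Csf1r). Csf1r was 67.5-fold higher, at 0.321 ± 0.182 CPM in young and 21.8 ± 0.551 CPM in aged cells. Lyz2 passed the filter only through the young libraries and Csf1r only through the aged ones. The list's summed level was 92.8 to 95.9 CPM in young and 43.3 to 44.2 CPM in aged libraries. Within it Cd14 fell from 80.7 to 21 CPM. The pan-leukocyte gene Ptprc had 1 count over all 6 libraries together. Of 6 adipocyte genes all 4 tested were lower. The list summed to 355 to 373 CPM in young and 0.642 to 1.28 CPM in aged libraries. Most of the young sum was Fabp4, at 321 ± 10.2 CPM. Fabp4, Plin1 and Cidec passed the filter only through the young libraries, and Pparg passed in both groups. The genes not tested went opposite ways: Adipoq had 33 counts in young and 6 in aged cells, Lep 6 and 25. The part of these cell types in the change of the elastic fibre genes was not tested.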

How the data were processed

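Total RNA was extracted with TRIzol and the VAHTS Universal V6 kit served for poly(A) libraries, per the labels' protocols. The submitters' processing notes name fastp, HISAT2 and HTSeq without versions. Build, annotation and strand setting were not given in the sources used here, so reads of overlapping or antisense genes cannot be told apart. The authors deposited raw read counts per gene symbol, 1 column per library, with no normalization, and every row carries a symbol. Columns were matched to samples by the library name in the labels.

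The test was that of edgeR 4.0.16 (R 4.3.3) on the counts: filterByExpr with a minimum count of 10, TMM scaling, and the quasi-likelihood F test of aged against young without covariates. Adjustment was by Benjamini-Hochberg over 14273 genes, called under 0.05. CPM use the TMM-scaled totals, and the SE is the log2 change divided by the square root of F. The procedure was tested on simulated data. Alternatives were library size alone, RLE factors, DESeq2 1.42.0, limma-voom 3.58.1, no filter, a replicate block, and leaving out each library. Levels are compared between groups and not between genes, because transcript lengths of the annotation used were not at hand. All 10 symbols matched RefSeq, and 7 had a promoter sequence. Proteins were not analysed here.

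The genes and lists were chosen with earlier results of these data known. Named from each partner list are the 3 genes with the smallest p among those with a mean of at least 1 CPM, and other names, such as those in parentheses, were chosen after their values were seen.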

Additional observations from a re-analysis of the deposited data

How the results depend on the processing

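Fbn1, Fbn2, Fbln1, Fbln5, Efemp1 and Efemp2 stayed lower and Mfap4 stayed higher, each past the threshold, under the 12 alternatives run (library size alone, RLE factors, DESeq2, limma-voom, no filter, replicate block and 6 omissions of a library). With library size alone 2 members were higher instead of 1, Fbln2 turned to a log2 change of 0.27 and Mfap5 to 0.083 (edgeR adjusted p = 0.49). Without the low-count filter Fbln2 was called lower (-0.08, edgeR adjusted p = 0.033), and 12339 calls became 13418. Leaving out 1 library gave 7 to 8 called members; adjusted p for Mfap5 then ran from 0.0019 to 0.23 in edgeR. The cause of these shifts was not tested. Same-numbered young and aged libraries did not deviate together over all tested genes (correlations of -0.01, 0.0011 and 0.0098). Whether they were handled together cannot be read from these values. With the replicate number as a block, 7 members and 12162 genes were called, and Mfap5 had an edgeR adjusted p of 0.051. Adding 0.5 counts left each of the 6 ratio shifts in its direction, at 1.42 for Fbn1 over Fbn2 and 5.23 for Mfap4 over Mfap5. Few counts limit what can be said of Eln, Mfap2, the young level of Mfap4 and the aged level of Fbn2.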
